A study of Mus musculus with 12 samples.

Results

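Glycine tRNA fragments that lack the first bases of the tRNA were described in mouse sperm. The sequences were chosen from the deposited small RNA table of 2971 sequences by their bases. The 28-nt sequence with the rank 2 mean level over the 12 libraries, at a mean of 116532 RPM (reads scaled so that all library totals are equal), was taken first. The most abundant sequence of at least 34 nt that begins with it, at 35 nt and a mean of 1938 RPM, served as the reference. Mean abundance therefore chose both of these sequences. The Gly-GCC family holds every sequence that aligned inside the reference with at most 2 edits (1083 sequences), and the members are the 126 of them whose alignment starts at base 2 of the reference or later. The remaining 957 start at base 1.

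tRNAs deliver amino acids to the ribosome, and each pairs with its codon through the 3 bases of the anticodon. Cleavage in or before the anticodon loop releases 5′ fragments, which are abundant in mature sperm and are known to be taken up while sperm pass through the epididymis. Glycine fragments are among those known to respond to the diet of the father. A fragment that lacks the first bases has lost part of the 5′ strand of the acceptor stem of the tRNA.

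The sequences below are shown because the results turn on them, and they differ in where they start, where they end and which base they carry at positions 5 and 6. Positions are counted from 1 at the first base of the reference. Capitals mark the anticodon in the reference, and in every other sequence they mark a base that differs from the reference. Bases are written in DNA letters as in the deposited table.
reference, bases 1 to 35: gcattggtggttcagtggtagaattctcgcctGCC
most abundant family sequence, bases 1 to 28: gcattggtggttcagtggtagaattctc
bases 2 to 28: cattggtggttcagtggtagaattctc
bases 2 to 31: cattggtggttcagtggtagaattctcgcc
bases 3 to 29: attggtggttcagtggtagaattctcg
bases 3 to 30: attggtggttcagtggtagaattctcgc
bases 3 to 31: attggtggttcagtggtagaattctcgcc
bases 4 to 31: ttggtggttcagtggtagaattctcgcc
bases 5 to 31: tggtggttcagtggtagaattctcgcc
bases 2 to 28 with G6T: cattTgtggttcagtggtagaattctc
bases 2 to 28 with T5G and C28T: catGggtggttcagtggtagaattctT
bases 3 to 30 with C30T: attggtggttcagtggtagaattctcgT
bases 3 to 30 with T5G and C30T: atGggtggttcagtggtagaattctcgT
bases 3 to 30 with T5G and C30A: atGggtggttcagtggtagaattctcgA
bases 4 to 31 with G6T: ttTgtggttcagtggtagaattctcgcc
bases 3 to 30 with 1 base deleted: attgtggttcagtggtagaattctcgc
bases 3 to 35, through the anticodon: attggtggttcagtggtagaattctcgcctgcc
bases 2 to 35 and 2 bases beyond: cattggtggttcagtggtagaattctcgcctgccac

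The study compared the small RNA of sperm between diets, and between wild-type males and males lacking 1 copy of ATF7, which encodes a transcription factor. Sperm with completed histone replacement (HRCS, in which protamines have taken the place of histones) were freed from caudal epididymis and vas deferens. The heads were parted from the tails by mild sonication, and the fraction was spun down through 82% Percoll. From 3 to 12 weeks of age the males, wild-type or ATF7+/-, ate either a control diet or a diet low in protein, which gives 4 groups of 3 libraries. How the ATF7 allele was made is not given in the sources used here. No group carried a transgene or a Cre allele in the labels, and the low protein groups differ from their controls by the whole diet over all of those weeks. Whether 1 library came from 1 male or from several is not given in the sources used here, so p-values measure the spread between these libraries, which may in part be technical. The table lists small RNA sequences only, so the label of the cells was not checked against marker genes.

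RefSeq lists 14 mouse Gly-GCC tRNA genes in GRCm38.p6, 5 of them on chromosome 1, 3 on chromosome 8, 2 on chromosome 13 and 1 each on chromosomes 2, 3, 4 and 11. The most abundant Gly-GCC sequence was found in 0 of 141767 GENCODE transcripts on either strand. A member cannot be assigned to 1 of the 14 genes here, since genomic tRNA sequences were not used.

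Library totals ran from 2198744 to 6870039 reads, and all 3 ATF7+/- low protein libraries (4828916 to 6870039 reads) were deeper than all 3 wild-type low protein libraries (2278880 to 2874170). A level of 3 counts came to at most 1.36 RPM in any library, and no fold is given where a group mean was below this. The reads carry no molecular identifiers, so intervals and floors cover counting error alone. Library 1 of the wild-type control-diet group stood apart from the other libraries for the members, since it held the highest of all 12 levels for 95 of the 126. At the low end, ATF7+/- low protein library 2 held the lowest level for 60 members and wild-type low protein library 1 for 32. Within the ATF7+/- low protein group the order was nearly the same throughout, with library 1 highest and library 2 lowest for 114 members each.

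The members ranged from a mean of 2.88 to 2599 RPM with a median of 23.5 RPM, and all 126 passed the filter of a mean of 1 RPM. Their mean levels summed to 13225 RPM, which was 3.25% of the summed mean RPM of the Gly-GCC family and 1.35% of that of the table. The 6 most abundant members held 47.7% of the members' RPM, and 28 members were over 100 RPM. In every one of the 118 cases where the same sequence with the first bases in place was also in the table, the member was the rarer of the pair. At the limit of 2 edits stood 31 members with means of 2.88 to 88.4 RPM. Just outside it were 2 sequences with 3 edits, at 30.5 and 77.3 RPM, and both run past the end of the reference.

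The number of members dropped with each further base lost. Members that start at base 2 lack the first g (59 sequences, 57.2% of the members' RPM), those that start at base 3 lack gc (42 sequences, 33.4%), and those that start at base 4 lack gca (24 sequences, 9.24%). The lone member that starts at base 5 took 0.139%. The table bears on this count, because 2950 of its 2971 sequences are 27 to 36 nt long, so a member starting at base 4 is seldom listed unless it reaches base 30. Among reads of members that end at base 30 or beyond, a start at base 3 was the most frequent on average in all 4 groups, with group means of 42.8 to 47.9%, against 33.3 to 41.8% for base 2 and 15.2 to 18.5% for base 4. Library 3 of the ATF7+/- control-diet group differed from the rest here, with 31.1% of these reads starting at base 4 against 11.0 to 20.8% in the other 11 libraries.

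The members and the sequences with complete starts divided their reads differently among the ends. Base 28 ended 29.9% of the members' RPM against 44.6% of the RPM of sequences that start at base 1, and base 31 ended 31.2% against 16.9%. Base 30 differed less (21.3% against 19.5%), as did base 29 (11.1% against 8.58%). Base 27 ended 5.98% of the RPM of sequences that start at base 1, and 0 members end there. A member with that end would be under 27 nt, and so would one starting at base 3 and ending at base 28, so the lengths in the table bear on the shares at these ends. The first anticodon base lies at position 33, and 22 members reach it with 3.92% of the members' RPM. Of these, 9 reach the last anticodon base at position 35.

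Of the ends from base 28 to base 35, lack of the first bases was most frequent at base 34, within the anticodon. There, the members took 7.57 to 30.7% of the Gly-GCC reads of a library, against 5.001 to 10.2% at base 35 or beyond, 1.71 to 14.1% at base 31 and 0.954 to 5.90% at base 28. Few reads end at base 34, which accounted for 0.0765% of the RPM of sequences that start at base 1. The fragment of bases 3 to 34 stood at 13.0% ± 3.27 (SD, n = 3) of its complete partner in wild-type low protein libraries, against 1.54% ± 0.121 (SD, n = 3) for bases 3 to 35.

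Of the 126 members, 23 match the reference exactly (57.4% of their RPM), 72 have 1 edit and 31 have 2. Sequences that start at base 1 were split alike, with 58.5% of their RPM at 0 edits. G6T was carried by 34 members with 15.4 to 22.3% of the members' reads in a library, against 16.6 to 20.9% in sequences that start at base 1. T5G was carried by 22 members with 3.48 to 11.3% of the reads, against 4.70 to 9.64%. Of the reads of each form, 1.06 to 9.49% lacked the first bases for the reference bases at positions 5 and 6, 1.09 to 9.40% for G6T and 0.887 to 8.02% for T5G. Members with the last base changed, such as C30T and C31T, made up 20.9 to 33.4% of the reads of a start at ends 30 to 35, against 22.7 to 32.3% for start 1. A changed last base can equally well be read as an end 1 base earlier with 1 added base, so the end of such members is uncertain. More than 1 best placement existed for 57 members, and a substitution was read where possible.

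A deletion set a small class of members apart. The 7 deletion members held 2.23% of the members' RPM, while deletions held 0.0185% of the RPM of sequences that start at base 1. For 4 of them, which begin attgtgg, no other reading within the same number of edits exists, and they sum to 222 RPM. The other 3 begin ttgtgg and can be read equally well as a start at base 5 with G6T, so their start is uncertain. The partner of a deletion member with the first bases in place was found in the table for none of the 7.

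Summed over the members, levels were lower on low protein diet in both genotypes. Wild-type libraries held 33243, 12725 and 11413 RPM under control diet, against 6952, 8713 and 8605 RPM under low protein diet. In ATF7+/- males the sums were 23165, 16821 and 12977 RPM against 11019, 5356 and 7706 RPM. Every low protein library was below every control-diet library, and wild-type control-diet library 1 was the highest of all.

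The share of Gly-GCC reads that lacked the first bases moved in the same direction. It was 9.58, 3.14 and 2.96% in wild-type control-diet libraries and 1.72, 2.22 and 2.29% in wild-type low protein libraries, so these groups did not overlap. The means were 5.23% ± 3.77 and 2.07% ± 0.312 (SD, n = 3 each), a difference of -3.16 percentage points that came to -0.978 without control-diet library 1. ATF7+/- libraries held 6.54, 4.85 and 2.59% on control diet against 2.63, 1.07 and 1.68% on low protein diet, where control-diet library 3 lay just under low protein library 1. Their means were 4.66% ± 1.98 and 1.79% ± 0.782 (SD, n = 3 each), a difference of -2.87 points. The 95% exact binomial (Clopper-Pearson) interval of a library's share reached at most 0.0495 points to either side.

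Sequences that start at base 1 did not show this drop in their summed level. Their means were 359880 ± 41162 RPM under control diet and 383216 ± 15416 RPM under low protein diet in wild-type libraries (SD, n = 3 each). In ATF7+/- libraries they were 382931 ± 90882 and 450632 ± 42458 RPM (SD, n = 3 each). Among the Glu-CTC fragments, built in the same way on the sequence of rank 1, 154 lack the first bases. Their share of Glu-CTC reads was 18.0, 11.6 and 3.16% in wild-type control-diet libraries and 2.14, 2.66 and 3.25% in wild-type low protein libraries. The fragments of the second tRNA were thus also highest in control-diet library 1, with an overlap at library 3.

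In wild-type males 16 members fell on low protein diet and 0 rose, at an adjusted p under 0.05 in edgeR's quasi-likelihood test (Benjamini-Hochberg, 2971 sequences tested). Of all sequences, 2.36% were called lower and 0.168% higher. The median log2 fold change was -1.28 over the 126 members against -0.10 over all sequences, 120 members had a negative estimate, and 81 had an unadjusted p under 0.05. Counts by sign and by unadjusted p, here and below, are given without the same counts over all sequences. Libraries of the 2 diets did not overlap for 53 members that were lower on low protein diet, where the share in the whole table was 11.0%. All 16 calls lay close to the threshold, at an adjusted p of 0.0486, and limma on log2 RPM as well as a fit of the wild-type groups alone called 0. Without wild-type control-diet library 1 the test called 0, and leaving out 1 of 9 other libraries also gave 0, whereas 63 (61 lower and 2 higher) were called without wild-type control-diet library 3 and 22, all lower, without ATF7+/- control-diet library 3.

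The wild-type calls lay close together along the tRNA. A changed last base is counted at its own position here, although the fragment may end 1 base earlier. Of the 16, 13 end at base 30, and they were 13 of the 28 members with that end, whose median log2 fold change was -2.05. The other 3 end at base 28 or 29 and all carry T5G (bases 3 to 29 with T5G, bases 3 to 29 with T5G and G29A, and bases 2 to 28 with T5G and C28A, the first and last of them chosen after their values were seen). Of the 28 members that end at base 31, 0 passed, with a median of -1.42. Some called members with T5G are rare and may be listed only through a control-diet library where they are high. The part of this in these counts and medians was not tested. The absence of calls at base 31 did not hold in DESeq2, which called 9 of the 28 with that end. At base 30 it called 24 of the 28, and at base 29 or before 11 of the 36.

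The fragment of bases 3 to 30 with C30T was at 903, 298 and 153 RPM in wild-type control-diet libraries, against 66.3, 88.0 and 93.8 RPM in the low protein libraries. The groups did not overlap, and the fragment fell by 2.45 on the log2 scale (SE 0.53, edgeR adjusted p = 0.0486). Without control-diet library 1 the estimate was -1.44 and the call was lost (edgeR adjusted p = 0.213). The 4 called members with the lowest fitted values, whose size cannot be given, were fragments with T5G that end at base 29 or 30 in a base differing from the reference. The most abundant of these, bases 3 to 30 with T5G and C30T, held 55.5, 27.9 and 6.96 RPM in control-diet libraries against 0.878, 2.09 and 0.434 RPM. Its fragment with C30A in place of C30T held 13.0, 5.07 and 1.33 RPM against 0, 0.348 and 0 RPM. In both, every control-diet library lay above every low protein library, and no fold is given because the low protein means were under the level of 3 counts. Every sequence in the table has a highest count of at least 45, so a rare member may be listed only through the library where it is high. The fragment with C30A was highest in control-diet library 1. So were bases 2 to 30 with T5G and C30A (19.6 RPM) and bases 3 to 29 with T5G and G29A (13.2 RPM). The falls of these fragments cannot be separated from their listing.

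Low protein diet in ATF7+/- males gave 0 called members in either direction. Of all sequences, 0.0337% were called lower and 0.0673% higher. The median log2 fold change of the members was -1.13 against 0.03 over all sequences, 122 estimates were negative, and 77 members had an unadjusted p under 0.05, with a smallest adjusted p of 0.180 by edgeR. DESeq2 called 12 members and limma on log2 RPM called 0. A fit of the ATF7+/- groups alone also called 0. With replicate number as a block, a pairing that the labels do not state, that fit called 63, all lower. Low protein libraries lay below control-diet libraries without overlap for 73 members, where the share in the whole table was 8.25%. No member was higher without overlap.

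The members with the smallest p in ATF7+/- males start at base 4 and end at base 31. The one with G6T held 216, 142 and 173 RPM in control-diet libraries against 61.1, 32.6 and 40.3 RPM, groups that did not overlap (log2 fold change -1.99, SE 0.41, edgeR adjusted p = 0.180). The other, ttgtggttcagtggtagaattctcgcc, is 1 of the deletion members with an uncertain start. It held 91.5, 62.1 and 79.6 RPM in control-diet libraries and 30.2, 18.6 and 24.3 RPM in low protein libraries (log2 fold change -1.67, SE 0.38, edgeR adjusted p = 0.180).

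Averaged over both genotypes, 80 of the 126 members fell on low protein diet and 0 rose, by the same edgeR test with Benjamini-Hochberg adjustment. Of all sequences, 10.3% were called lower and 1.55% higher. The median log2 fold change was -1.23 over the members and -0.01 over all sequences. This comparison uses the same libraries as the diet comparisons within each genotype, so it is no separate support for them. The 80 include rare fragments with T5G whose fall cannot be separated from their listing. The 6 low protein libraries lay below the 6 control-diet libraries without overlap for 19 members, against 1.31% of all sequences, and above them for 0 members, against 0.471%. The calls changed with single libraries, and limma called 0. Without any 1 of wild-type low protein libraries 1 and 2 and ATF7+/- low protein libraries 2 and 3, 0 members were called. Without wild-type control-diet library 1 there were 32 calls, and without ATF7+/- control-diet library 1 there were 16, with 40 without wild-type low protein library 3 and 44 without ATF7+/- control-diet library 2.

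The number of diet calls differed by where a member ends, with a changed last base read as a substitution. Over both genotypes 55 of 56 members that end at base 30 or 31 fell, with a median log2 fold change of -1.55. Of the 12 that end at base 32, 8 fell (median -1.13), and of the 36 that end at base 29 or before, 12 fell (median -0.88). Of the 22 that reach the anticodon, 5 fell (median -0.55). All 5 end at base 33, the first anticodon base. They start at base 3 or 4 with the reference form and at base 2, 3 or 4 with G6T, and were chosen after their values were seen. Without wild-type control-diet library 1 the calls were 28 of 56 for ends 30 and 31, 1 of 12 for end 32, 3 of 36 for ends up to 29 and 0 of 22 for ends 33 to 35. With control-diet libraries 1 and 2 of both genotypes left out, the medians no longer kept this order, at -0.78 for ends 30 and 31 (15 calls) and -0.86 for ends 33 to 35 (6 calls), and the classes were not tested against each other.

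Members that run through the whole anticodon had estimates near 0 in wild-type males when all libraries were used. The 9 that reach base 35, among them the fragment with 2 bases beyond, had log2 fold changes from -0.20 to 0.73 with a median of 0.19. All 6 members with a positive estimate in wild-type males were among these 9. The median was -0.20 without wild-type control-diet library 1 and -0.82 without control-diet libraries 1 and 2 of both genotypes, so it rests on the control-diet libraries that are kept. The fragment of bases 3 to 35 held 18.1, 32.6 and 97.1 RPM in control-diet libraries against 54.0, 50.8 and 46.9 RPM, with low protein levels inside the control range (log2 fold change 0.04, SE 0.53, edgeR adjusted p = 0.977). The fragment of bases 2 to 35 with 2 bases beyond held 39.5, 77.8 and 79.5 RPM in control-diet libraries against 117, 108 and 101 RPM. It was the lone member higher without overlap, where the share in the whole table was 8.45% (log2 fold change 0.73, SE 0.36, edgeR adjusted p = 0.261). At 36 nt it fills the whole read, so where this fragment ends was not seen. Over all members that reach base 35, the share of Gly-GCC reads lacking first bases was 9.90, 5.70 and 9.66% in wild-type control-diet libraries against 5.70, 5.31 and 5.12%.

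The summed levels of members by end differed between the genotypes in their overlap. Members that end at base 30 or 31 summed to 20445, 7102 and 4986 RPM in wild-type control-diet libraries and to 3155, 3539 and 3922 RPM in wild-type low protein libraries. In ATF7+/- males the sums were 13571, 9356 and 6461 RPM against 5010, 2318 and 3494 RPM. Neither genotype showed overlap. Members that end at bases 33 to 35 summed to 685, 375 and 800 RPM against 460, 515 and 540 RPM in wild-type libraries, where control-diet library 2 was the lowest of the 6. In ATF7+/- libraries they summed to 742, 560.5 and 569 RPM against 416, 224 and 335 RPM, without overlap, as for ends 30 and 31. Whether the ends differ in their diet response was not tested.

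By the bases at positions 5 and 6, members with T5G had the lowest median in wild-type males when all libraries were used. Of these 22 members, 9 fell, with a median log2 fold change of -2.25, or -2.03 over the 17 with both group means at or above the level of 3 counts. Rare members with T5G may be listed only through a control-diet library where they are high, and the part of this in the median was not tested. Of the 34 with G6T, 1 fell (bases 2 to 30 with G6T and C30T, chosen after its values were seen; median -0.99), and of the 63 with the reference bases, 6 fell (median -1.17). The deletion members had a median of -1.09, and 0 of 7 passed. In ATF7+/- males the medians lay closer together, at -1.34 for T5G, -1.24 for G6T, -1.01 for the reference bases and -1.21 for the deletion. Reads with T5G were uneven among the wild-type control-diet libraries, where they were 5.95, 11.3 and 3.77% of the members' reads, against 3.48 to 4.68% in wild-type low protein libraries. Without wild-type control-diet library 1 the T5G median was -1.55 with 0 calls. Without control-diet libraries 1 and 2 of both genotypes it was -0.47, against -0.63 for the reference bases and -0.61 for G6T.

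By start, the diet estimates were of like size. Over both genotypes 32 of 59 members that start at base 2 fell (median log2 fold change -1.11), 28 of 42 at base 3 (-1.39) and 19 of 24 at base 4 (-1.19). Summed levels of start 3 were 13442, 4070 and 3643 RPM in wild-type control-diet libraries against 2383, 2344 and 2738 RPM on low protein diet. ATF7+/- libraries held 8373, 5850 and 3423 RPM against 3023, 1547 and 2195 RPM for this start, again without overlap. Start 4 in ATF7+/- control-diet libraries ran in another order than starts 2 and 3, with 1635, 1177 and 2302 RPM, so library 3, the lowest of its group for starts 2 and 3, was the highest here.

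The most abundant member, bases 2 to 28, held 5169, 2487 and 2605 RPM in wild-type control-diet libraries and 1586, 2291 and 2004 RPM in wild-type low protein libraries. In ATF7+/- males it held 3787, 3110 and 2677 RPM against 2478, 1261 and 1729 RPM. Low protein libraries lay below control-diet libraries in both genotypes. Over both it fell by 0.81 on the log2 scale (SE 0.23, edgeR adjusted p = 0.0400). The call was lost without wild-type control-diet library 1 (-0.59, edgeR adjusted p = 0.108) and without control-diet libraries 1 and 2 of both genotypes (-0.48, edgeR adjusted p = 0.285). Its partner with the first base was at 83273, 88299 and 119440 RPM against 132918, 131210 and 122583 RPM in wild-type libraries, so the member was 3.73% ± 2.16 of its partner in the former and 1.52% ± 0.292 in the latter (SD, n = 3 each). In ATF7+/- libraries it was 4.50, 3.20 and 1.57% of its partner against 2.12, 0.968 and 1.42%.

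Among the longer members, bases 3 to 30 held 2818, 1043 and 655 RPM in wild-type control-diet libraries and 361, 416 and 456 RPM in wild-type low protein libraries. In ATF7+/- males it held 1363, 959 and 599 RPM against 528, 273 and 379 RPM. All 6 low protein libraries were below all 6 control-diet libraries, and over both genotypes it fell by 1.59 on the log2 scale (SE 0.33, edgeR adjusted p = 0.0200). Without wild-type control-diet library 1 it still passed (-1.18, edgeR adjusted p = 0.0319), and without control-diet libraries 1 and 2 of both genotypes it did not (-0.64, edgeR adjusted p = 0.148). Bases 3 to 31 held 2443, 603 and 553 RPM against 545, 412 and 529 RPM in wild-type libraries and 2002, 1366 and 475 RPM against 539, 249 and 357 RPM in ATF7+/- libraries. The gap was narrow in wild-type males and closed in ATF7+/- males, where control-diet library 3 lay under low protein library 1. Over both genotypes it fell by 1.51 on the log2 scale (SE 0.41, edgeR adjusted p = 0.0352), but the estimate was -0.99 without wild-type control-diet library 1 (edgeR adjusted p = 0.0890) and -0.24 without control-diet libraries 1 and 2 of both genotypes (edgeR adjusted p = 0.646).

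Bases 2 to 31 fell by 1.53 on the log2 scale over both genotypes (SE 0.42, edgeR adjusted p = 0.0360), and its control-diet libraries spread from 435 to 2183 RPM. The estimate was -1.09 without wild-type control-diet library 1 (edgeR adjusted p = 0.0935) and -0.15 without control-diet libraries 1 and 2 of both genotypes (edgeR adjusted p = 0.837). Bases 3 to 29 fell by 1.22 (SE 0.32, edgeR adjusted p = 0.0301), and under the same omissions did not pass (-0.83 and -0.59, edgeR adjusted p = 0.0638 and 0.207). The start at base 4 with end 31 fell by 1.15 (SE 0.27, edgeR adjusted p = 0.0243), from means of 468 ± 299 and 472 ± 84.1 RPM to 246 ± 14.7 and 183 ± 57.5 RPM (SD, n = 3 each, wild-type then ATF7+/-). It passed under both omissions (-0.83 and -0.96, edgeR adjusted p = 0.0451 and 0.0425). The fragment of bases 2 to 28 with G6T did not pass, with a log2 fold change of -0.62 (SE 0.22, edgeR adjusted p = 0.0836). It held 1101, 527 and 745 RPM against 462, 669 and 623 RPM in wild-type libraries, which overlapped.

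The lone member of the rarest start also fell. Bases 5 to 31, which lack the first 4 bases, held 29.8, 16.9 and 20.2 RPM in wild-type control-diet libraries and 14.5, 13.2 and 13.0 RPM in low protein libraries. In ATF7+/- males the levels were 27.9, 20.8 and 28.7 RPM against 13.9, 10.3 and 11.4 RPM. No low protein library reached a control-diet library, and the fragment fell by 0.92 on the log2 scale over both genotypes (SE 0.18, edgeR adjusted p = 0.0199). It passed without wild-type control-diet library 1 (-0.79, edgeR adjusted p = 0.0353) and without control-diet libraries 1 and 2 of both genotypes (-0.93, edgeR adjusted p = 0.0388).

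The 957 Gly-GCC sequences that start at base 1 had other counts in the same fit. Low protein diet called 6 of them in wild-type and 0 in ATF7+/- males, with median log2 fold changes of -0.03 and 0.38. Of the 154 Glu-CTC fragments that lack the first bases, 15 were called lower in wild-type males and 0 in ATF7+/- males, with medians of -1.94 and -1.20. Over both genotypes 86 of these 154 were called lower, with a median of -1.50, against 17 calls and a median of 0.15 for the Gly-GCC sequences that start at base 1. The calls of sequences that start at base 1 are not split by direction here, unlike those of the Glu-CTC fragments. The sets were not tested against each other, and all were measured in the same libraries.

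Genotype left no called member on either diet. On control diet 0 of 126 passed by edgeR's quasi-likelihood test, by DESeq2 and by limma, 3 had an unadjusted p under 0.05, and 0.0% of all sequences were called in either direction. The median log2 fold change of ATF7+/- over wild type was -0.21 for the members and -0.05 for all sequences. The 2 members with the smallest p were bases 2 to 28 with T5G and C28T (log2 fold change -0.98, SE 0.44) and bases 3 to 30 with C30T (-1.10, SE 0.50), both at an edgeR adjusted p of 0.965. Wild-type control-diet libraries of the second ranged from 153 to 903 RPM and enclosed 2 of the 3 ATF7+/- levels of 282, 200 and 150 RPM.

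On low protein diet edgeR also called 0 members, limma called 0 and DESeq2 called 1, with 5 at an unadjusted p under 0.05. Of all sequences, 0.135% were called higher in ATF7+/- males and 0.0673% lower. Medians were 0.10 for the members and 0.11 for all sequences. The smallest p values belonged to 2 members that run through the anticodon. Bases 2 to 35 with 2 bases beyond held 117, 108 and 101 RPM in wild-type and 38.5, 43.8 and 49.8 RPM in ATF7+/- libraries (log2 fold change -1.30, SE 0.36, edgeR adjusted p = 0.114). Bases 3 to 35 held 54.0, 50.8 and 46.9 RPM against 18.6, 18.2 and 19.4 RPM (log2 fold change -1.43, SE 0.54, edgeR adjusted p = 0.203). Neither overlapped. The ATF7+/- low protein libraries were the deeper ones, and the part of depth in these differences was not tested. The full-length reference, which starts at base 1, held 3227, 3535 and 3118 RPM in wild-type and 1053, 1218 and 1340 RPM in ATF7+/- low protein libraries.

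The diet effect was not shown to differ between the genotypes for any member. The interaction called 0 of 126 by edgeR, DESeq2 and limma, with 8 at an unadjusted p under 0.05 and 0.0% of all sequences called in either direction. The median difference of the diet effect, ATF7+/- minus wild type, was 0.12 on the log2 scale for the members and 0.16 for all sequences. Bases 2 to 35 with 2 bases beyond had the smallest p among members with levels above 3 counts in every group. Its diet effect was 1.36 lower on the log2 scale in ATF7+/- males (a difference of -1.36, SE 0.51, edgeR adjusted p = 0.468). For bases 2 to 28 the difference was -0.01 with an SE of 0.46, so even a difference of about 2 SE in either direction could not be told from 0.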

How the data were processed

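Small RNA libraries (NEBNext kit, 36 bp reads) of 12 sperm samples were analysed from 1 deposited table. It holds raw read counts per sequence and RPM values that the authors scaled to 1 total per library, per the file headers. Reads were placed on mm10 per the submitters' processing notes, with the aligner, trimming and counter not given in the sources used here. Trimming of adapters or read ends could alter which first bases a sequence has. All per-sample columns were used. Dividing deposited counts by RPM gave the library totals (2198744 to 6870039 reads).

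Sequences were placed in the reference with edlib 1.3.9.post1 (infix alignment, at most 2 edits, smallest start among best hits, substitutions read before deletions). The whole table of 2971 sequences was fitted with edgeR 4.0.16 in R 4.3.3 (quasi-likelihood, 4 group means over 12 libraries, recovered totals as library sizes, no further scaling, mean of at least 1 RPM, two-sided, Benjamini-Hochberg over all sequences, threshold 0.05). The biological coefficient of variation was 0.326. The SE is the log2 fold change divided by the square root of its F. The test was tested on simulated data. Alternatives were TMM factors, DESeq2 1.42.0, limma 3.58.1 on log2(RPM + 1), other filters and library sizes, a replicate block and left-out libraries. Lists have no p of their own.

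For the control-diet groups, the deviations of wild-type and ATF7+/- libraries with the same number were correlated (r 0.547, 0.143 and 0.522). The labels do not state this pairing, and the fit with replicate number as a block left 0 members called for genotype on control diet. No other groups had r over 0.1 in all 3 numbers. For number 1 alone, r was 0.583 between wild-type control-diet and ATF7+/- low protein libraries, and 0.414 between the ATF7+/- diets.

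Chosen for naming were the 6 most abundant members, and the most abundant at each start and at 1 and 2 edits. Also chosen were the 4 largest falls called in a comparison or, with none called, the 2 smallest p, and partners from base 1. Levels of the most abundant member with 2 edits and of some partners are not printed. Members, classes and lists were chosen with earlier results of these data known. Matches to the genome were not made here.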

Additional observations from a re-analysis of the deposited data

How the results depend on the processing

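Counts of called members moved with the fit. For diet in wild-type males (16 members) DESeq2 called 45, and limma, a filter of a mean of 10 RPM, a fit of the 2 groups alone, the replicate block and leaving out control-diet replicates 1 and 2 of both genotypes each called 0. With exact matches to the reference alone, 1 of the called members remains in the list. For diet in ATF7+/- males (0) DESeq2 called 12, the replicate block 63 and the fit without control-diet replicates 1 and 2 called 25. For diet over both genotypes (80) limma called 0, the fit without those replicates 23, and 13 were exact matches, while the block called 86. For genotype on low protein diet (0) DESeq2 called 1, the fit of 2 groups 8, the block 2 and the fit without those control-diet replicates 8. That last fit leaves 1 control-diet library per genotype, which is assumed to vary like the other groups, and its members' median for diet over both genotypes was -0.67 on the log2 scale. In it, bases 2 to 28 with T5G and C28T turned to 0.31 for genotype on control diet, and bases 2 to 35 with 2 bases beyond to 0.022 for the interaction and 0.47 for diet in ATF7+/- males, and bases 3 to 35 to -0.94 for diet in wild-type males. Outside control diet the replicate numbers do not pair the libraries. The cause of these moves was not tested.

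With 1 library left out at a time, calls ranged from 0 to 63 for diet in wild-type males, 0 to 4 in ATF7+/- males, 0 to 102 over both, 0 to 1 for the interaction, and 0 to 0 for genotype on either diet. The difference in the share of Gly-GCC reads lacking first bases ranged from -4.29 to -0.978 points in wild-type and from -3.90 to -1.93 points in ATF7+/- males, and kept its sign in each. Among uncalled members whose sign turned, bases 3 to 35 ranged from -0.36 to 1.01 for diet in wild-type males, from -0.92 to 0.035 in ATF7+/- males and from -0.50 to 0.19 over both, and bases 2 to 35 with 2 bases beyond from -0.12 to 0.18 over both. TMM factors, no filter and column sums as library sizes kept every count within 1.5 times.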
